A study of Homo sapiens with 8 samples.

Results

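OVCAR3 is an established human high-grade serous ovarian cancer line, and the comparison examined here set OVCAR3 cells grown as stem-like spheres against the same cells grown as an adherent bulk culture. The 4 OVCAR3 libraries of the 8 in the series were chosen by their labels. They comprise bulk and sphere (ovarian cancer stem cell-enriched, OCSC) cultures of control cells (OVCAR3-CTR) and of cells with the Matrix Gla Protein gene MGP knocked out (OVCAR3-MGPKO), all at passage 4, with 1 library for each culture and genotype. The knockout cells came from clones isolated after CRISPR-Cas9 with a pair of guides to exon 1 of MGP, and which clone was sequenced is not given in the sources used here. OCSC were spheres grown without attachment at low density in serum-free medium with B27, EGF and FGF2. Bulk cells grew attached in RPMI with serum and insulin. Attachment, medium, serum and growth factors therefore cannot be told apart in any difference described here. Of the 20339 genes in the count table, 15328 had a mean normalized count of at least 10 over the 4 libraries and were tested.

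Sphere culture selects cells that survive without attachment and divide as single cells, and it is widely used to enrich for cancer stem cells. Attached cells receive signals from matrix through integrins and from cytoskeletal tension, which act on the coactivators YAP and TAZ, and serum drives the immediate early genes. EGF and FGF2 signal through receptor tyrosine kinases to ERK, which induces its own inhibitors, and cells deprived of lipoproteins process SREBP2 to switch on the cholesterol synthesis genes.

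The OVCAR3 libraries held between 13027676 and 22655355 counts, and in both genotypes the OCSC library was deeper than the bulk library. RNA without a poly(A) tail took 2.59 to 4.85% of the counts, with less in OCSC than in bulk in CTR (4.21 and 2.59% in bulk and OCSC) and more in MGPKO (3.81 and 4.85%). MGP was counted 0, 1, 0 and 2 times in CTR bulk, CTR OCSC, MGPKO bulk and MGPKO OCSC, under the floor of 3 counts in each library, so the knockout label could not be checked against the targeted gene. The paper reports that OVCAR3 cells held detectable MGP protein. It checked the knockout by RT-qPCR, western blot and immunofluorescence. Why the control libraries here held 0 and 1 counts was not tested. PAX8, a transcription factor of the Mullerian lineage, was at normalized counts of 8547 to 18466 in the OVCAR3 libraries, and the epithelial adhesion gene EPCAM at 4067 to 5591. PTPRC, CD3E and MS4A1 of the leukocyte list had no row among the counts and ITLN1 of the mesothelial list was at 0 in every OVCAR3 library.

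Between spheres and bulk 380 genes differed, and more of them rose than fell. In the test paired by genotype (edgeR quasi-likelihood, Benjamini-Hochberg adjusted p under 0.05), 275 genes were higher and 105 lower in OCSC, which is 1.79% and 0.685% of the 15328 genes tested. The median log2 fold change (log2FC, OCSC relative to bulk) was 2.33 for the genes that rose and −2.08 for those that fell, against 0.04 over all genes tested. Of the genes that rose, 273 were also at least 2-fold higher in each pair on the log2(normalized count + 1) scale, as were all 105 that fell in the lower direction. TRIM43, which had 0 counts in both CTR libraries and is named here after its values were seen, rested on the MGPKO pair alone.

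Counting only genes that moved at least 2-fold the same way in both pairs, with no test, gave 609 higher (3.97%) and 554 lower (3.61%). The CTR pair alone had 1983 genes at least 2-fold higher and 1675 at least 2-fold lower, and the MGPKO pair alone had 1062 and 1155. Both pairs shared their sign for 63.9% of genes, with 35.3% above 0 in both and 28.5% below. Across the 12324 genes with a mean of at least 50 the Pearson correlation of the 2 pairs was 0.55, a description across genes that are not independent replicates. At an unadjusted p under 0.05 in the paired edgeR test, 1575 of the 15328 genes were higher and 993 lower. These are the background for such counts in the lists below. With 2 pairs the fit had 1 residual degree of freedom per gene, beside a median of 6.1 prior degrees of freedom shared across genes. Its p-values and SE therefore rest on that shared spread as well as on how closely the 2 genotypes repeat each other. With the spread shared with COV318 the counts were 48 and 10, and with that spread leaving out the CTR pair as well gave 11 and 1 and leaving out the MGPKO pair 9 and 4. Thinning every library to the lowest total count gave 97 and 29, while a fit with no genotype term called 0 genes at an adjusted p under 0.05 (1974 at an unadjusted p under 0.05) and DESeq2 called 585 and 291.

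The 15 largest rises, ranked by the smaller change of the 2 pairs, included several genes of the matrix and the cell surface. LRRC17, a secreted leucine-rich repeat protein, had normalized counts of 12.3 in CTR bulk, 777 in CTR OCSC, 42.5 in MGPKO bulk and 1756 in MGPKO OCSC, a log2FC of 5.59 ± 0.34 (SE, 2 pairs, adjusted p = 0.0031). DKK2, a secreted modulator of WNT signalling, had 9.25, 209, 24.1 and 1019 in the same order (5.06 ± 0.42, adjusted p = 0.00799). In both genes, which were ranked for a large rise in both pairs, each OCSC library lay above both bulk libraries. COL6A1, a chain of the matrix protein collagen VI, went from 1901 to 31913 in CTR and from 1163 to 57551 in MGPKO (4.85 ± 0.48, adjusted p = 0.012). MEGF11, a membrane protein with EGF-like repeats, went from 4.63 to 237 and from 5.75 to 468 (6.04 ± 0.52, adjusted p = 0.00799). CHST1, a sulfotransferase that acts on keratan sulfate, went from 91.0 to 3036 and from 9.19 to 1486 (5.89 ± 0.56, adjusted p = 0.014).

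Genes of transport and of retinol handling were also among the 15. SLC6A20, a transporter of proline and other imino acids, had 7.71 in CTR bulk, 333 in CTR OCSC, 36.8 in MGPKO bulk and 2531 in MGPKO OCSC (log2FC 5.90 ± 0.35, adjusted p = 0.0031). RBP4, the plasma carrier of retinol, had 94.1, 2236, 6.89 and 888 (5.40 ± 0.57, adjusted p = 0.0184), and ADH1C, an alcohol dehydrogenase that also oxidises retinol, had 75.6, 1410, 10.3 and 503 (4.75 ± 0.42, adjusted p = 0.00857). ADH1C has near-identical paralogs, among which reads may have been split. FFAR4, a receptor for long-chain fatty acids, had 29.3, 976, 4.6 and 308 (5.40 ± 0.42, adjusted p = 0.00799). RBP4 (chromosome 10, 93591687 to 93601744, minus strand, hg38, GENCODE release 44) lies within the span of FFAR4 (93566665 to 93604480, plus strand), with no exon shared between them. Both rose in the 2 OVCAR3 pairs, as their place among the 15 requires. In the COV318-CTR pair their differences were 4.25 and 3.56, values that do not cover the COV318-MGP pair.

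The remaining large rises included genes that were near absent from bulk cells. MYBPC2, a myosin-binding protein of fast skeletal muscle, had 0 and 1 counts in the bulk libraries and 162 and 325 in OCSC, which is at least 32.7-fold higher in CTR against the floor of 3 counts. Its log2 ratio of normalized counts in MGPKO had a 95% counting interval of 5.46 to 13.26 (Clopper-Pearson, counting error only). ANGPTL1, a secreted angiopoietin-like protein, had 0 and 1 counts in bulk and 102 and 392 in OCSC, at least 20.6-fold higher in CTR, with an interval of 5.73 to 13.53 in MGPKO. Both genes passed the test with an adjusted p of 0.00857. The zinc finger gene ZBTB7C (5.22 ± 0.44), the polarity scaffold gene LIN7A (5.22 ± 0.38), the WAP-family pseudogene WFDC21P (5.41 ± 0.31) and the unnamed locus LOC105370413 (4.88 ± 0.50) completed the 15, with adjusted p from 0.0031 to 0.0102. LIN7A shares exonic sequence with ACSS3 and LRRC17 with FBXL13 in the annotation, and whether strand was used in counting is not given in the sources used here.

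The 15 largest falls, ranked the same way, included genes of amino acid supply and of growth factor response. SLC7A5, the leucine transporter LAT1, went from 34591 in CTR bulk to 3258 in CTR OCSC and from 8250 to 1287 in MGPKO (log2FC −3.05 ± 0.30, adjusted p = 0.0102). BCAT1, the cytosolic aminotransferase of branched-chain amino acids, went from 5109 to 501 and from 2458 to 363 (−3.06 ± 0.26, adjusted p = 0.00799). A transporter and an enzyme of branched-chain amino acids were thus among the genes ranked for a large fall in both genotypes. EGR1, a serum-induced transcription factor, went from 4698 to 222 and from 2187 to 313 (−3.60 ± 0.44, adjusted p = 0.0224). FST, which encodes the activin antagonist follistatin, went from 662 to 87.7 and from 1066 to 32.3 (−3.93 ± 0.57, adjusted p = 0.0345). AXL, a receptor tyrosine kinase, went from 241 to 28.0 and from 81.6 to 14.0 (−2.83 ± 0.49, adjusted p = 0.0363).

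Single genes of the cytoskeleton and matrix were also among the 15 falls, while the lists of such genes did not fall. Of 16 tested actin cytoskeleton and SRF target genes 0 passed, with a median of −0.04. Of 19 tested basement membrane and fibronectin genes 1 rose (FN1) and 0 fell. FLNC, an actin crosslinker, had normalized counts of 140, 11.2, 54.0 and 5.25 in CTR bulk, CTR OCSC, MGPKO bulk and MGPKO OCSC (log2FC −3.50 ± 0.56, adjusted p = 0.031), and BGN, the matrix proteoglycan biglycan, had 133, 20.5, 232 and 14.0 (−3.35 ± 0.55, adjusted p = 0.0343). The adaptor gene STAC had 436, 49.5, 151 and 24.5 (−2.89 ± 0.43, adjusted p = 0.0241). For 2 genes the OCSC libraries were at or near the floor: KRT81, a hair keratin, went from 18 to 3 counts and from 283 to 3 counts, with 95% intervals of the log2 ratio of −5.72 to −1.53 and −9.24 to −5.39, and SGIP1, an endocytic adaptor, went from 19 to 2 and from 179 to 7 counts, with intervals of −7.12 to −1.92 and −6.41 to −4.0. RNVU1-19, a variant U1 spliceosomal RNA (−2.96 ± 0.37, adjusted p = 0.0162), and SNORD3B-1, a copy of the U3 small nucleolar RNA (−2.71 ± 0.40, adjusted p = 0.025), lack a poly(A) tail and have near-identical copies, so their values are uncertain. The unnamed locus LOC105379481 (−3.91 ± 0.60, adjusted p = 0.0295) and ADAMTSL4-AS1 (−2.99 ± 0.52, adjusted p = 0.0362), which shares exonic sequence with ADAMTSL4 and MCL1, and GLI1, described with the Hedgehog pathway, completed the 15. Among all 281 tested RNAs that lack a poly(A) tail, 0 rose (against 1.79% of all genes) and 4 fell (1.42%, against 0.685%). In both pairs 171 of them were below 0 (against 28.5% of all genes) and 8 above (against 35.3%), and their median was −1.26 in the CTR pair and −0.60 in the MGPKO pair. The part of library preparation in these values was not tested.

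Several markers of ovarian cancer stem cells were higher in OCSC. Of the 20 listed stem cell markers 15 were tested, and 4 rose (26.7%, against 1.79% of all genes) and 0 fell, with a median log2FC of 0.73. In both pairs 8 of the 15 were above 0 (against 35.3% of all genes) and 2 below (against 28.5%), and the lowest log2FC was −1.29. LGR5, a receptor for R-spondins that marks stem cells of several epithelia, had normalized counts of 58.6 in CTR bulk, 1505 in CTR OCSC, 213 in MGPKO bulk and 2906 in MGPKO OCSC (4.18 ± 0.32, adjusted p = 0.00799). CD44, the hyaluronan receptor, had 109, 1045, 291 and 1537 (2.81 ± 0.31, adjusted p = 0.0127). PROM1, which encodes CD133, had 23.1, 148, 14.9 and 90.9 (2.64 ± 0.50, adjusted p = 0.0483). ALDH1A1, an aldehyde dehydrogenase that makes retinoic acid, had 666, 5225, 993 and 2883 (2.25 ± 0.38, adjusted p = 0.0459). In these 4 genes, named because they passed the test, both OCSC libraries exceeded both bulk libraries.

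The pluripotency factors did not move together. SOX2 had 1796 in CTR bulk, 3336 in CTR OCSC, 1096 in MGPKO bulk and 3104 in MGPKO OCSC, and its log2FC of 1.2 ± 0.25 did not pass (adjusted p = 0.0627). KLF4 had 765, 803, 293 and 778, a difference of 0.07 in the CTR pair and 1.41 in the MGPKO pair (adjusted p = 0.378). POU5F1 had at most 2 counts in any OVCAR3 library and was not tested, and NANOG had no row in the count table. KIT, a receptor tyrosine kinase, had 15.4, 642, 65.5 and 246 with an adjusted p of 0.18, and the 2 pairs differed in size (5.29 and 1.89). NT5E, which encodes CD73, had 91.0, 69.1, 28.7 and 41.1 (0.04 ± 0.50, adjusted p = 0.983), and CD24, a surface glycoprotein, had 11258, 13617, 13144 and 9450 (adjusted p = 0.905). THY1, at 1, 0, 8 and 2 counts, was not tested.

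Of the 12 listed genes of the epithelial to mesenchymal transition (EMT), 6 were tested, 3 rose (50%, against 1.79% of all genes) and 0 fell. VIM, the mesenchymal intermediate filament vimentin, had 35.5 in CTR bulk, 298 in CTR OCSC, 108 in MGPKO bulk and 2499 in MGPKO OCSC (log2FC 3.91 ± 0.42, adjusted p = 0.014), and it shares exonic sequence with VIM-AS1. FN1, the matrix protein fibronectin, had 455, 4781, 339 and 4868 (3.62 ± 0.26, adjusted p = 0.00672). CDH2, the mesenchymal cadherin, had 1089, 3753, 1038 and 4226 (1.91 ± 0.23, adjusted p = 0.014). In both pairs 4 of the 6 were above 0 (against 35.3% of all genes) and 1 below (against 28.5%). The transcription factors of the list did not pass: SNAI1 had 125, 344, 156 and 187 (adjusted p = 0.369), TWIST1 had 67.8, 202, 186 and 177 (adjusted p = 0.534), and ZEB1 had at most 1 count. SNAI2 was at 0 counts in all 4 libraries, which allows a level of up to 0.132 to 0.230 CPM, a count relative to its library total. The epithelial cadherin CDH1 had 4791, 9217, 2836 and 4365 (0.78 ± 0.23, adjusted p = 0.154). Of the 19 epithelial junction genes tested 0 rose and 0 fell, with a median of 0.08. At an unadjusted p under 0.05, 3 of the 19 were higher, against 1575 of all 15328 genes tested.

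Of the 17 tested in the list of EGF and ERK feedback targets, 5 rose (29.4%, against 1.79% of all genes) and 0 fell. In both pairs 9 were above 0 (against 35.3% of all genes) and 3 below (against 28.5%). The median was 0.28 in the CTR pair and 0.92 in the MGPKO pair, and the summed level went from 1790 to 1074 CPM in CTR and from 1258 to 1238 in MGPKO. SPRY4, an inhibitor of receptor tyrosine kinase signalling, had 273 in CTR bulk, 1163 in CTR OCSC, 149 in MGPKO bulk and 1039 in MGPKO OCSC (log2FC 2.44 ± 0.29, adjusted p = 0.0145), and its relative SPRY1 had 811, 1906, 672 and 3057 (1.71 ± 0.29, adjusted p = 0.0386). PHLDA1, a pleckstrin homology-like domain protein, had 125, 538, 200 and 1159 (2.33 ± 0.28, adjusted p = 0.0149). The ETS factor ETV5 (1.98 ± 0.30, adjusted p = 0.0255) and LRIG1, which promotes degradation of EGF receptors (1.86 ± 0.35, adjusted p = 0.049), also rose. ETV5 shares exonic sequence with DGKG and LRIG1 with SLC25A26. The ephrin receptor EPHA2 had 23418, 9248, 15518 and 6983 (−1.25 ± 0.25, adjusted p = 0.0591).

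Of 18 immediate early genes tested, which serum induces within minutes, 3 fell (16.7%, against 0.685% of all genes) and 0 rose. In both pairs 12 were below 0 (against 28.5% of all genes) and 2 above (against 35.3%), and the median log2FC was −1.21 (−1.50 in the CTR pair and −0.70 in the MGPKO pair). Beside EGR1, FOS went from 4219 to 824 in CTR and from 1149 to 349 in MGPKO (−2.04 ± 0.26, adjusted p = 0.0172), and MYC from 6274 to 2027 and from 2811 to 1393 (−1.32 ± 0.25, adjusted p = 0.0462). FOSB went from 1610 to 92.4 in CTR and from 278 to 88.3 in MGPKO and did not pass (adjusted p = 0.134), with a larger difference in CTR than in MGPKO. JUN was between 2460 and 3500 in every library (−0.03 ± 0.22, adjusted p = 0.963).

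Among targets of the adhesion-sensitive coactivators YAP and TAZ, 4 of the 22 tested fell (18.2%, against 0.685% of all genes) and 0 rose, with a median of −0.26. AMOTL2, a junction protein that restrains YAP and is itself induced by it, went from 58531 to 14211 in CTR and from 24087 to 9826 in MGPKO (log2FC −1.67 ± 0.32, adjusted p = 0.0482). CCN1, a secreted matrix-associated protein, went from 2222 to 396 and from 1395 to 345 (−2.25 ± 0.25, adjusted p = 0.012), and AJUBA, a LIM-domain protein, from 6728 to 1040 and from 2317 to 701 (−2.21 ± 0.30, adjusted p = 0.0223). AXL is the fourth. CCN2, in the same family as CCN1, went from 5684 to 1853 and from 1873 to 1162 and did not pass (adjusted p = 0.104). The list did not move as 1 group: MYOF was higher in both OCSC libraries (1.19 ± 0.23, adjusted p = 0.0501). In both pairs 4 of the 22 were above 0 (against 35.3% of all genes) and 10 below (against 28.5%).

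Of 25 tested genes of cholesterol synthesis and uptake, 3 rose (12.0%, against 1.79% of all genes) and 0 fell. In both pairs 23 of them were above 0, against 35.3% of all genes, and 0 below, and the median log2FC was 0.90 (1.16 in CTR and 0.65 in MGPKO). LSS, which closes the sterol ring, had 429 in CTR bulk, 1599 in CTR OCSC, 692 in MGPKO bulk and 1639 in MGPKO OCSC (1.57 ± 0.26, adjusted p = 0.0342). TM7SF2, a sterol reductase, had 398, 1091, 652 and 2179 (1.60 ± 0.23, adjusted p = 0.0225), and MSMO1, a sterol methyl oxidase, had 461, 1901, 1197 and 2753 (1.62 ± 0.28, adjusted p = 0.0371). HMGCS1, at the entry of the pathway, had 2799, 9610, 5688 and 9642 (1.27 ± 0.31, adjusted p = 0.101), and SQLE, the squalene epoxidase, had 961, 3163, 1503 and 2757 (adjusted p = 0.07). In all, 18 of the 25 were higher at an unadjusted p under 0.05, against 1575 of all 15328 genes tested. TM7SF2 shares exonic sequence with VPS51. Of the 11 fatty acid synthesis genes tested 0 rose and 0 fell, with 2 higher at an unadjusted p under 0.05: FASN had 16857, 19742, 16652 and 12919, and SCD had 19939, 20953, 13540 and 10196.

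The 250 bases before the annotated start of the 3 cholesterol genes that passed are shown because these members moved together. Sequences are from RefSeq on GRCh38.p14, 5′ to 3′ on the strand of the gene, in lower case with each CCAAT box (on either strand, so CCAAT or ATTGG) in capitals.
LSS, chr21:46228775-46229024, strand -: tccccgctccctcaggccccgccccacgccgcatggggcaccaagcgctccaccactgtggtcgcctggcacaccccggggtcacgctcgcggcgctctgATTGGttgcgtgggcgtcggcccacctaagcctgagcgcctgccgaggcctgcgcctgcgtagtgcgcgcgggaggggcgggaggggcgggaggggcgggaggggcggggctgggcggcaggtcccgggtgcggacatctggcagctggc
TM7SF2, chr11:65111622-65111871, strand +: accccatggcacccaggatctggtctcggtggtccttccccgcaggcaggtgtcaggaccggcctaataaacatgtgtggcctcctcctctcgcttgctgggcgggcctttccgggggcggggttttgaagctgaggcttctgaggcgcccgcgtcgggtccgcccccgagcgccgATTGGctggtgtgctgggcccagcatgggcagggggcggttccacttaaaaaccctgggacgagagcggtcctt
MSMO1, chr4:165327419-165327668, strand +: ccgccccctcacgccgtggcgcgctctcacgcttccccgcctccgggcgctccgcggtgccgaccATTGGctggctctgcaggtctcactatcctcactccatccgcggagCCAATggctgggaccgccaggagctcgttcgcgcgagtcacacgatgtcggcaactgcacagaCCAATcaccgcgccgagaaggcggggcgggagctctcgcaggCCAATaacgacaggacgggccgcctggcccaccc

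CCAAT was found once in LSS, once in TM7SF2 and 4 times in MSMO1. Of the 25 tested genes 19 had an entry, with 24 promoters between them, and 18 of those (75.0%) held CCAAT on either strand, against 32.0% of all 35116 promoters of the same length. The sterol element core TCACNCCAC was in 1 of the 24 (4.17%), that of SREBF2, and in 0.883% of all promoters. These matches describe letters in the window and not binding.

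Of 18 tested genes of the amino acid response, driven by the transcription factor ATF4, 1 fell (5.56%, against 0.685% of all genes) and 0 rose. In both pairs 14 were below 0, against 28.5% of all genes, and 0 above, and the median was −2.31 in the CTR pair and −0.52 in the MGPKO pair. The gene that passed was SLC7A5. Its partner chain SLC3A2 went from 15893 to 3622 in CTR and from 5094 to 3485 in MGPKO (log2FC −1.34 ± 0.41, adjusted p = 0.19), and ASNS, which makes asparagine, from 134 to 7.47 and from 50.6 to 20.1 (adjusted p = 0.17). MTHFD2, a mitochondrial folate enzyme, went from 15896 to 2361 and from 3556 to 1930 (adjusted p = 0.15). CTR bulk was the highest library for each of these genes.

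Of 12 NRF2 targets of the oxidative stress response 1 rose (8.33%, against 1.79% of all genes), and of 7 retinoid genes tested 1 fell (14.3%, against 0.685%). NQO1, a quinone reductase and target of NRF2, had 2530 in CTR bulk, 7385 in CTR OCSC, 1840 in MGPKO bulk and 4172 in MGPKO OCSC (log2FC 1.36 ± 0.23, adjusted p = 0.0357). Of the 12 NRF2 targets, 10 were above 0 in both pairs, against 35.3% of all genes, with a median of 0.67. DHRS3, which returns retinal to retinol, went from 1673 to 394 and from 623 to 127 (−2.19 ± 0.25, adjusted p = 0.0139), while 4 other retinoid genes were above 0 in both pairs. The retinol receptor STRA6 had 13.9, 71.9, 24.1 and 108 (2.25 ± 0.51, adjusted p = 0.0815), and CRABP2, a retinoic acid carrier, 1380, 6919, 2141 and 3201 (adjusted p = 0.192).

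In the Notch pathway, 3 of 13 tested members fell (23.1%, against 0.685% of all genes) and 1 rose (7.69%, against 1.79%). The receptor NOTCH1 went from 3223 to 1388 in CTR and from 3217 to 763 in MGPKO (log2FC −1.64 ± 0.28, adjusted p = 0.0364), its ligand JAG2 from 1650 to 633 and from 997 to 231 (−1.74 ± 0.27, adjusted p = 0.0307) and the target HES4 from 1411 to 471 and from 935 to 441 (−1.33 ± 0.25, adjusted p = 0.0479). HEY1, another Notch target, moved the other way, from 207 to 587 and from 167 to 1142 (2.14 ± 0.37, adjusted p = 0.0418). In the WNT list the secreted antagonist SFRP1 fell from 2671 to 1248 and from 1767 to 762 (−1.16 ± 0.22, adjusted p = 0.0459), as the only call among 10 tested (10.0%, against 0.685% of all genes). AXIN2, a feedback target of WNT, had 3.08 in CTR bulk, 25.2 in CTR OCSC, 171 in MGPKO bulk and 636 in MGPKO OCSC (adjusted p = 0.064), so that MGPKO bulk exceeded CTR OCSC.

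In the Hedgehog pathway 2 of 11 tested members rose (18.2%, against 1.79% of all genes) and 1 fell (9.09%, against 0.685%). In both pairs 5 were above 0 (against 35.3% of all genes) and 3 below (against 28.5%). The median was 0.45 (0.65 in the CTR pair and −0.30 in the MGPKO pair), so the list did not move as 1 group. GLI1, the pathway's transcription factor and a standard readout of its activity, went from 521 to 27.1 in CTR and from 18.4 to 2.62 in MGPKO (log2FC −3.84 ± 0.59, adjusted p = 0.0281). CTR OCSC thus still held more GLI1 than MGPKO bulk, and the 3 counts in MGPKO OCSC gave a 95% counting interval of −5.23 to −1.0 for that pair. GLI1 shares exonic sequence with ARHGAP9. HHIP, which binds and sequesters Hedgehog ligands, went from 6.17 to 116 and from 4.6 to 55.1 (3.88 ± 0.61, adjusted p = 0.0303, exonic sequence shared with HHIP-AS1), and the co-receptor GAS1 from 699 to 1383 and from 1011 to 3082 (1.30 ± 0.25, adjusted p = 0.0499). SMO, the transducer, was between 609 and 889 (adjusted p = 0.763).

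Of 15 tested integrins and matrix receptors 2 rose (13.3%, against 1.79% of all genes) and 0 fell. At an unadjusted p under 0.05, 2 were higher and 6 lower, against 1575 and 993 of all 15328 genes tested. In both pairs 7 were below 0, against 28.5% of all genes. ITGA6, a laminin receptor chain, went from 558 to 1463 in CTR and from 760 to 1583 in MGPKO (log2FC 1.22 ± 0.23, adjusted p = 0.0458), and ITGB5, a chain of a vitronectin receptor, from 1016 to 2820 and from 1146 to 3093 (1.45 ± 0.22, adjusted p = 0.0255). ITGA5, the fibronectin receptor chain, went from 128 to 38.3 and from 325 to 44.6 and did not pass (−2.32 ± 0.48, adjusted p = 0.0656). The simple keratins KRT8 (1.26 ± 0.32, adjusted p = 0.104) and KRT18 (1.47 ± 0.33, adjusted p = 0.0811) were above bulk in both OCSC libraries and KRT7 (−1.26 ± 0.28, adjusted p = 0.0781) below, without passing, and KRT8 and KRT18 share exonic sequence with each other, KRT7 with KRT7-AS and ITGA6 with ITGA6-AS1. Of 6 mucins and secreted antigens of ovarian cancer tested 2 rose (33.3%, against 1.79% of all genes). WFDC2, which encodes HE4, went from 2481 to 5484 and from 2630 to 6368 (1.21 ± 0.22, adjusted p = 0.0434), and the protease inhibitor SLPI from 10217 to 30576 and from 12122 to 36215 (1.58 ± 0.27, adjusted p = 0.0361). MUC16, the gene of the CA125 antigen, had 13680, 6566, 7133 and 7986 (adjusted p = 0.564).

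The BCL2 family gave 1 call (7.69% of its tested members) and the multiciliated cell genes 1 (14.3%), both higher, against 1.79% of all genes. BMF, a BH3-only protein tied to cell death on loss of attachment, had 376 in CTR bulk, 1469 in CTR OCSC, 479 in MGPKO bulk and 2113 in MGPKO OCSC (log2FC 2.05 ± 0.23, adjusted p = 0.0127), whereas its relative BCL2L11 had 674, 962, 630 and 982 (0.58 ± 0.23, adjusted p = 0.277). CAPS, a calcium-binding protein of ciliated epithelium, had 369, 3234, 400 and 2215 (2.80 ± 0.27, adjusted p = 0.00905, exonic sequence shared with RANBP3), while FOXJ1, the master factor of motile cilia, had 20.0, 172, 43.7 and 47.2 (adjusted p = 0.398).

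Proliferation and energy genes gave no call. Of all genes 1.79% were called higher and 0.685% lower, shares at which lists this short can give 0. At an unadjusted p under 0.05, 1575 of all 15328 genes tested were higher and 993 lower. Of 25 S phase and 26 G2 and mitosis genes tested 0 passed, with 1 S phase gene higher and 1 mitotic gene lower at an unadjusted p under 0.05: MKI67 had 3374, 4407, 6708 and 3480 in CTR bulk, CTR OCSC, MGPKO bulk and MGPKO OCSC. The glycolysis (17 tested), oxidative phosphorylation (18), hypoxia (15), unfolded protein response (16), interferon (16), NF-kB (15), lysosome (17) and ribosome biogenesis (14) lists likewise had 0 calls by edgeR, with 1, 1, 2, 2, 2, 1, 4 and 0 members at an unadjusted p under 0.05. CDKN2C, an inhibitor of CDK4 and CDK6, had 58.6, 419, 114 and 322 (adjusted p = 0.0662), and all 6 tested CDK inhibitor genes were above 0 in both pairs, against 35.3% of all genes. Of the 18 oxidative phosphorylation genes 13 were above 0 in both pairs, against 35.3% of all genes, and 0 below, with a median of 0.31. Ribosome biogenesis genes leaned the other way, with 10 of 14 below 0 in both pairs, against 28.5% of all genes, and a median of −0.32.

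Among markers of other cell types, 1 of 4 tested fibroblast genes (25.0%) and 1 of 3 tested mesothelial genes (33.3%) rose, against 1.79% of all genes. The summed level of the 8 fibroblast markers was 10.9 and 25.0 CPM in the bulk libraries and 21.2 and 30.1 in OCSC, and COL3A1, the collagen III gene, had 0 and 0 counts in bulk and 23 and 58 in OCSC, at least 4.64-fold and 14.7-fold higher (adjusted p = 0.0362). The fibroblast-defining gene DCN had at most 2 counts in any library. Of 6 mesothelial markers counted, 3 were tested and UPK1B, a uroplakin also made by other epithelia, rose from 975 to 15963 in CTR and from 2196 to 11279 in MGPKO (log2FC 3.19 ± 0.46, adjusted p = 0.0342), taking the summed level from 57.0 to 779 and from 135 to 601. BNC1 and ITLN1 had at most 2 counts. The endothelial list summed to 7.06 to 11.7 CPM and the leukocyte list to 2.92 to 5.49 CPM over the 4 libraries, with 0 calls in either and 2 endothelial genes higher at an unadjusted p under 0.05. Their part in the values above was not tested. Of 16 epithelial markers 0 passed, and their summed level was 8057 and 8595 in bulk and 11859 and 13451 in OCSC. At an unadjusted p under 0.05, 7 were higher and 2 lower, against 1575 and 993 of all 15328 genes tested. Whether a change came from fewer or more cells of a kind or from RNA per cell cannot be told apart in bulk samples.

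The COV318 line, another ovarian cancer line, also gave spheres against bulk, with a control pair and a pair with MGP introduced (COV318-CTR and COV318-MGP, passage 18). Its bulk cells grew in another medium, DMEM with less serum and no listed insulin. Its OCSC libraries were shallower than bulk (12294591 against 37393919 counts in CTR, 13259037 against 29814396 in MGP), the reverse of OVCAR3. Line therefore cannot be told apart from bulk medium, depth and passage here. Across the 12324 genes the correlation of the COV318 differences with those of OVCAR3 was 0.14 and 0.22 for COV318-CTR (OVCAR3-CTR and OVCAR3-MGPKO in turn). It was −0.06 and −0.04 for COV318-MGP, and the 2 COV318 pairs had −0.05 with each other. Of the 275 genes that rose in OVCAR3, 105 (38.2%, against 9.26% of all genes tested) were at least 2-fold higher in the COV318-CTR pair and 28 at least 2-fold lower, while in the COV318-MGP pair 30 (10.9%, against 9.0%) were higher and 32 lower. Of the 105 that fell, 42 (40.0%, against 7.8% of all genes tested) were at least 2-fold lower and 10 higher in COV318-CTR, and 17 (16.2%, against 7.48%) lower and 24 higher in COV318-MGP. For the opposite moves, the shares of all genes tested were 7.8% lower and 9.26% higher in COV318-CTR, and 7.48% lower and 9.0% higher in COV318-MGP. In both COV318 pairs together, 12 of the rises and 7 of the falls moved at least 2-fold the same way. The share of all genes that did so was not counted, so these 2 numbers have no background.

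In the test of the difference itself (OVCAR3 minus COV318, edgeR over all 8 libraries), 2 of 16763 genes passed (0.0119%), with 1355 at an unadjusted p under 0.05. They were LRRC17 (6.79 ± 0.59, adjusted p = 0.025) and DKK2 (8.48 ± 0.75, adjusted p = 0.025), which rose in OVCAR3 and differed by −1.0 and −1.32 (LRRC17) and −3.55 and −2.77 (DKK2) in the COV318-CTR and COV318-MGP pairs. The next genes did not pass. IGFBP5, a binding protein of insulin-like growth factors, went from 2282 to 12873 and from 619 to 11809 in OVCAR3 and differed by −2.07 and −2.32 in COV318 (line difference 5.63 ± 0.63, adjusted p = 0.102). The TNF receptor family gene TNFRSF19 (4.68 ± 0.58) and COL6A1 (4.87 ± 0.60) had the same adjusted p, and in the other direction BCAT1 (−2.83 ± 0.40, adjusted p = 0.129), the elongation factor EEF1A2 and the imprinted antisense RNA KCNQ1OT1 (both adjusted p = 0.148) came first. Leaving out COV318-MGP gave 69 calls and leaving out COV318-CTR gave 49.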

How the data were processed

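The RNA-seq data consist of 8 libraries, 1 for each line, genotype and culture, with no replicate library. The authors aligned paired reads to hg38 with STAR (2.7.5c per the labels' processing notes) counted reads per gene and deposited raw counts. The authors also deposited a normalized signal, each count divided by the DESeq2 median-of-ratios size factor of its library. The kit used for each library, the gene annotation and the strand setting are not given in the sources used here. Size factors over the 8 libraries were recomputed and gave the deposited normalized signal (largest relative difference 7.5e-10).

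Counts of the 4 OVCAR3 libraries were fitted with edgeR 4.0.16 (quasi-likelihood, robust, genotype and culture terms) in R 4.3.3 on genes with a mean normalized count of at least 10, with Benjamini-Hochberg adjustment at 0.05. The main fit holds the genotype term because labels share it across cultures, and 2 pairs leave 1 residual degree of freedom. SE is the log2FC divided by the square root of F. Pair differences used a pseudocount of 1, and a fold on that scale understates changes of low genes. The line difference was fitted on all 8 libraries with 2 residual degrees of freedom. Floors are 3 counts and intervals are exact binomial at 95%. Both cover counting error only, since reads carry no molecular identifiers. P-values measure the spread between these libraries, partly shared across genes, and that spread may be technical. The scripts were tested on simulated counts.

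Genes were named by rule: MGP and the genes the study names; in each direction the 15 called genes with the largest smaller change of the pairs and a mean of at least 50; the 5 genes in each direction with opposite signs; up to 6 members of each list by smallest p, or by highest count where fewer passed; and the 5 genes of smallest p in each direction of the line difference. The 42 lists (37 pathway, 5 marker) and the members were chosen with earlier results of these data known. Alternatives were other size factors, filters, pseudocounts and thresholds, DESeq2 1.42.0, no genotype term, a spread shared with COV318, each pair left out, and, chosen after seeing the data, thinning to the lowest total. Results that concern withheld items are not reported here.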

Additional observations from a re-analysis of the deposited data

Results flagged for a closer look

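The 2 OVCAR3 genotypes moved in opposite directions for some genes and lists. Each genotype has 1 pair, so these differences were not tested. WNT7A, a secreted WNT ligand, went from 136 to 1382 in CTR and from 213 to 51.6 in MGPKO, a log2 difference between pairs of 5.36. GABRA2, a GABA receptor subunit (7.71 to 36.4, 409 to 4.37), gave 8.36, the phosphodiesterase gene PDE4B (3.08 to 14.9, 236 to 23.6) gave 5.23, LZTS1 (20.0 to 99.9, 211 to 30.6) gave 5.01 and RARRES2, which encodes the chemokine-like chemerin (69.4 to 276, 365 to 95.3), gave 3.91. In 4 of these 5 genes MGPKO bulk was the highest of the 4 libraries.

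In the other direction 4 of the 5 genes were small RNAs without a poly(A) tail: RNU4-2 (672 to 118 in CTR, 293 to 1002 in MGPKO) gave -4.28, RNY1 (385 to 79.3, 118 to 369) gave -3.90, SNORA52 (237 to 62.5, 66.6 to 256) gave -3.83 and SNORA48 (1243 to 385, 526 to 1766) gave -3.43. The share of all counts in such RNAs moved the same way, from 4.21 to 2.59% in CTR and from 3.81 to 4.85% in MGPKO. The part of that share in these values was not tested. The median log2FC over the 281 such RNAs tested was below 0 in both pairs (-1.26 in CTR and -0.60 in MGPKO). FOXB1, a forkhead gene (401 to 142, 36.8 to 253), gave -4.24.

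Of the lists with at least 10 tested members, 5 had medians of at least 0.2 in size and opposite sign in the 2 pairs. The CTR minus MGPKO difference of medians was 0.97 for basement membrane genes (0.64 and -0.33), 0.95 for the Hedgehog pathway (0.65 and -0.30), 0.91 for the unfolded protein response (0.65 and -0.26), 0.69 for G2 and mitosis (0.25 and -0.44) and 0.65 for S phase (0.40 and -0.25). These were not tested either.

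The culture effect differed between the 2 lines, in the edgeR test of that difference, for LRRC17 (6.79, adjusted p = 0.025) and DKK2 (8.48, adjusted p = 0.025), which was higher in OCSC in 2 of 2 OVCAR3 pairs and 0 of 2 COV318 pairs for each.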

How the results depend on the processing

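With the main counts of 275 genes higher and 105 lower in OCSC, TMM and size factors without poly(A)-less RNA stayed within 1.5 times. The higher count was 181 with size factors over the 4 OVCAR3 libraries and 171 with total counts. Without a filter the counts were 561 and 257, with DESeq2 585 and 291, with the spread shared with COV318 48 and 10, and thinned to the lowest total 97 and 29. Without the replicate block, that is with no genotype term, both were 0. Leaving out 1 pair, which also takes the spread from COV318 and so changes 2 choices, gave 9 to 11 higher and 1 to 4 lower. The cause of these changes was not tested. All 97 and 29 genes called after thinning were among the main calls, and 273 and 104 of the main calls were among those of DESeq2.

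Of the 67 called genes named from the rule and lists, none changed sign in any alternative, 49 lost the call with the spread shared with COV318, 60 with that spread and without the CTR pair, 64 with it and without the MGPKO pair, and all 67 without the block. ALDH1A1, AMOTL2, GAS1, HES4, HEY1, ITGA6, KRT81, LRIG1, MSMO1, MYC, PROM1, SFRP1, SPRY1 and WFDC2 kept it in 4 of 12 alternatives and COL3A1 in 4 of 11. The NT5E log2FC turned to -0.05 with total count scaling, -0.11 without the block and -0.14 after thinning, and in 1 pair alone ranged from -0.40 to 0.51. The TWIST1 log2FC ranged from -0.08 to 1.57 in 1 pair alone.

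Genes at least 2-fold higher in both pairs numbered 609, and 192 at a log2 threshold of 2. The number of genes at least 2-fold lower in both pairs was 554, and 94 at that threshold, 350 with a pseudocount of 10, 1005 without a filter and 267 at a mean of at least 50. Each pair alone gave 1062 to 1983 higher and 1155 to 1675 lower. The line difference, 2 genes, became 49 to 69 without 1 COV318 pair. The stem cell median of 0.73 was 0.65 with total counts and 1.02 at a mean of at least 50, and 0.89 to 1.0 in 1 pair alone. The EMT median of 1.38 was 1.91 at a mean of at least 50. In 1 pair alone the immediate early median ranged from -1.50 to -0.70, the ATF4 median from -2.31 to -0.52, the feedback target median from 0.28 to 0.92, the YAP median from -0.47 to -0.35 and the Hedgehog median from -0.30 to 0.65. Depth limits genes under 3 counts, such as MGP.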
